A study of Mus musculus with 6 samples.

Results

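The levels of 10 genes of the liver's acute-phase response were examined in mice on a high-fat diet (HFD): the serum amyloid A genes Saa1, Saa2, Saa3 and Saa4, the orosomucoid genes Orm1, Orm2 and Orm3, haptoglobin (Hp), hemopexin (Hpx) and lipocalin 2 (Lcn2). They were chosen by symbol, and all 10 were found among the 45777 genes listed. All 10 also passed the filter on low counts, which left 17274 genes to be tested. For 1 gene, Orm3, the genotypes did not overlap, as for 10.6% of all genes tested, and it was not past the adjusted threshold of the main test, whereas the largest differences, those of Saa1, Saa2 and Lcn2, lay between mice of the same genotype.

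The liver RNA came from 3 littermate controls (LT) and 3 mice labelled Fpn-LKO, all of them male, on a C57BL/6 background and in the same labelled batch. Every mouse carried the floxed Fpn allele on both chromosomes (Fpn flox/flox). The Fpn-LKO mice also carried Alb-Cre, a transgene that uses the albumin promoter to express Cre recombinase in hepatocytes, so other liver cells kept the intact gene in the design. The floxed line came from 129S mice and was crossed back to C57BL/6J. Diet is given in the library names, and the age of these mice is not given in the labels. Replicates 1, 2 and 3 are numbered within each genotype.

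The acute-phase response is a change in the set of plasma proteins that hepatocytes secrete when interleukin-6, interleukin-1 and related cytokines reach the liver. Serum amyloid A proteins travel on high-density lipoprotein, orosomucoids bind lipids and drugs in plasma, haptoglobin captures free hemoglobin, hemopexin captures free heme, and lipocalin 2 binds bacterial siderophores and so withholds iron. Haptoglobin, hemopexin and lipocalin 2 thus bear on iron. Ferroportin, the protein that Fpn (Slc40a1) encodes, is the only known exporter of iron from cells, and hemoglobin and heme are major sources of that iron.

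Total counts on genes lay between 43086184 and 47778683 per library. Slc40a1, the targeted gene, was at 126 to 180 CPM (read counts scaled to a common library size, with TMM factors) in LT and at 143 to 176 CPM under the Fpn-LKO label, with a log2 fold change of 0.0073 (standard error 0.16). The label was therefore not visible in the count of the deleted gene in whole liver. By its own assays the paper reports that ferroportin was deleted in hepatocytes of this line. Fpn-LKO stands below for libraries that carry this label. Alb, the main product of hepatocytes, was at 38068 to 48160 CPM in all 6 libraries. For the acute-phase genes LT replicate 3 stood apart from the other LT libraries, so values without it are given beside the results that rest on it.

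The genes lie at 5 places in the genome, given here in GRCm38. Saa3, Saa4, Saa1 and Saa2 follow each other within 42316 bases of chromosome 7 (Saa1 at chr7:46740497-46743181 on the minus strand and Saa2 at chr7:46751833-46754313 on the plus strand, 8651 bases apart). Orm1, Orm3 and Orm2 lie within 21322 bases of chromosome 4, in that order on the plus strand (Orm3 at chr4:63356069-63359506). Hpx is on chromosome 7 as well (chr7:105591611-105600116, minus strand), Hp on chromosome 8 (chr8:109575128-109579172, minus strand) and Lcn2 on chromosome 2 (chr2:32384637-32387739, minus strand).

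Promoter sequences were at hand for 8 of the 10 genes in RefSeq (GRCm38.p6), as the 250 bases before the start site that the annotation sets. For Saa1, Saa3 and Orm3 that site lies inside the annotated span of the gene, which has transcripts that start further upstream. The windows of Saa1 (chr7:46742981-46743230, minus strand) and Saa2 (chr7:46751583-46751832, plus strand) are shown because the levels of these neighbours followed each other through the 6 libraries. Those of Orm2 (chr4:63362199-63362448, plus strand) and Orm3 (chr4:63355908-63356157, plus strand) are shown because their levels parted in LT replicate 3. That of Lcn2 (chr2:32387740-32387989, minus strand) is shown because it varied next most after Saa1 and Saa2. Capitals mark matches to a C/EBP motif (TTGCNNAA) and, in Orm2 and Orm3, to a TATA box (TATAAA), on either strand.
Saa1: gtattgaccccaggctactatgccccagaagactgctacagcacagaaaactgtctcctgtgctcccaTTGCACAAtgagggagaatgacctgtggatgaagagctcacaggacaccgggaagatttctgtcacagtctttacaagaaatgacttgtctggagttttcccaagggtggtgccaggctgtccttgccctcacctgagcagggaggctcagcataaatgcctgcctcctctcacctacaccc
Saa2: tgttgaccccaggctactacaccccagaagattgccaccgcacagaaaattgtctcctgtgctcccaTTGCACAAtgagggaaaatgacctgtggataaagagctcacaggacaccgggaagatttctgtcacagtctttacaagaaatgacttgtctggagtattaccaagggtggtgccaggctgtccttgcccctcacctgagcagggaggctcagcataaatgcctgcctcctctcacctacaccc
Orm2: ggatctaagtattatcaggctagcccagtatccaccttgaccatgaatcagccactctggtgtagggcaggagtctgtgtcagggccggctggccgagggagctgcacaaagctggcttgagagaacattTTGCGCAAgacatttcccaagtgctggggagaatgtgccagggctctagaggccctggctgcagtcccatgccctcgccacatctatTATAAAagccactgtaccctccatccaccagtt
Orm3: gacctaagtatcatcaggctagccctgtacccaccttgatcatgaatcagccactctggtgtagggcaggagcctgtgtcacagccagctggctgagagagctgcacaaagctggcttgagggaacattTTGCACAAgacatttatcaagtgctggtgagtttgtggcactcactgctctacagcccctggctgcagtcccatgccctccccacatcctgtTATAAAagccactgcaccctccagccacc
Lcn2: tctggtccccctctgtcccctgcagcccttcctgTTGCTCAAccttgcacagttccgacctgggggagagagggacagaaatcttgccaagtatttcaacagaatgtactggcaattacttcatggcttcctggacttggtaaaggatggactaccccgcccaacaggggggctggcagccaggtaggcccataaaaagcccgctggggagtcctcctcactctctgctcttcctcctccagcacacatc

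The windows of Saa1 and Saa2 were 94.8% identical over 251 aligned columns, and those of Orm2 and Orm3 were 85.9% identical over 255. Each of the 8 windows held at least 1 match to the C/EBP letters, Saa4 held 2, and 9.56% of all 32851 promoter windows of the same length held at least 1. In Saa1 the match TTGCACAA began 182 bases before the start site, and in Saa2 the same 8 letters began 183 bases before it. The TATA box letters were found in Orm2 and Orm3 and in 12.4% of all windows. No window of the 8 held the NF-kB letters GGGNNTTTCC or the STAT letters TTCNNNGAA, which occurred in 1.41% and 7.02% of all windows. No match overlapped one to another motif. These matches describe the letters only, and windows of neighbouring paralogs are not independent of each other.

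The order of the levels was set by length-scaled values, TPM, which sum to the same total in every library. Hp and Hpx were the most abundant of the 10 transcripts, with means over the 6 libraries of 3690 and 3415 TPM. Saa1 followed at 1033 TPM, Orm1 at 808 TPM and Saa2 at 520 TPM. The others were Saa4 at 158 TPM, Orm2 at 44.1 TPM, Saa3 at 41.7 TPM, Lcn2 at 39.7 TPM and Orm3 at 6.15 TPM. Of the neighbours in this order, only Saa4 (86.7 to 282 TPM over the libraries) and Orm2 (14.0 to 78.2 TPM) did not overlap in their ranges. The order of the means was thus not the order in every mouse: Saa1 was at 58.9 TPM and Orm1 at 443 TPM in LT replicate 1, and Saa1 was at 2169 TPM and Orm1 at 1097 TPM in LT replicate 3.

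**Figure D1:**
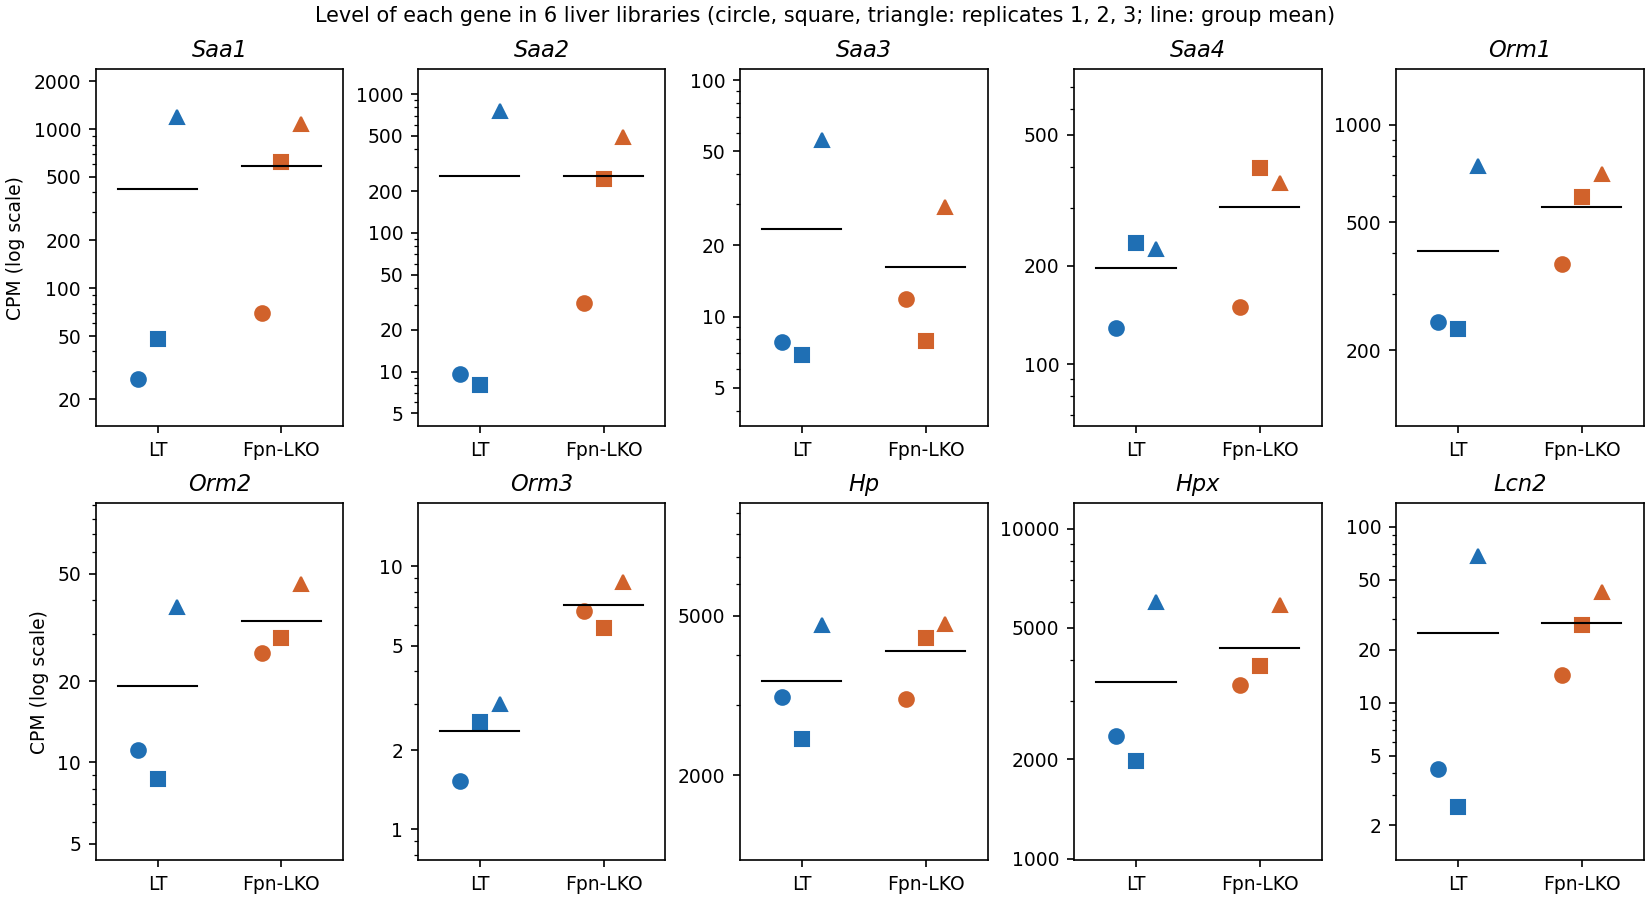
CPM of each of the 10 genes (log scale, a separate scale per gene) in the 3 LT and 3 Fpn-LKO libraries, with circles, squares and triangles for replicates 1, 2 and 3 and a line at the group mean. Only in the Orm3 panel do the groups not overlap, and in LT the triangle, replicate 3, is the highest of 3 for every gene but Saa4.

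The serum amyloid A genes Saa1 and Saa2 encode the isoforms that circulate in the acute phase, and they had the widest spread. Saa1 was at 27.0, 47.6 and 1189 CPM in LT replicates 1 to 3 and at 69.4, 622 and 1070 CPM in Fpn-LKO replicates 1 to 3. LT thus held the highest library and the 2 lowest, and the groups overlapped. Means were thus 421 ± 665 CPM in LT and 587 ± 501 CPM under the Fpn-LKO label (SD, n = 3 each), with a log2 fold change of 0.48 (95% interval -2.30 to 3.25, adjusted p = 0.995 by the quasi-likelihood test of edgeR, with the Benjamini-Hochberg adjustment over all genes tested). As these are bulk samples, less RNA per cell and fewer cells of a type cannot be told apart here or in any result that follows.

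Saa2 was at 9.54, 8.06 and 754 CPM in LT and at 31.4, 245 and 490 CPM under the Fpn-LKO label. The libraries stood in the same order as for Saa1 but for the lowest pair, with LT replicate 3 highest. The highest LT library held 93.6 times the level of the lowest, against 15.6 times among those labelled Fpn-LKO, and the log2 fold change between the genotypes was -0.01 (95% interval -3.20 to 3.18, adjusted p = 0.999 by the same edgeR test). The longest coding transcripts of the 2 genes were 93.5% identical over 612 aligned bases, so the division of reads between them is uncertain, and RefSeq lists each of the 2 symbols as an older name of the other gene. Their summed TPM depends little on that division. It was 80.7, 109 and 3557 TPM in LT and 196, 2065 and 3314 TPM under the Fpn-LKO label, with the highest library at 44.1 times the lowest (exact two-sided permutation test between genotypes on the log2 scale, p = 0.4, with 0.1 the smallest p that 3 against 3 allows).

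The ratio of Saa2 to Saa1 in TPM was 0.371, 0.179 and 0.64 in LT and 0.472, 0.396 and 0.462 under the Fpn-LKO label. The LT libraries spanned more than those labelled Fpn-LKO and enclosed them, so the ratio did not separate the genotypes (exact permutation p = 0.7).

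Saa3, the isoform made by macrophages and fat as well as liver, was at 7.81, 6.86 and 55.6 CPM in LT and at 11.9, 7.90 and 28.9 CPM under the Fpn-LKO label. Replicate 3 was the highest of each group and the other 4 libraries lay close together, and the log2 fold change was -0.53 (95% interval -2.19 to 1.14, adjusted p = 0.995 by edgeR). Saa4, the isoform that is made at a steady level and is only weakly induced, had another pattern. It was at 130, 235 and 225 CPM in LT and at 150, 396 and 357 CPM under the Fpn-LKO label, and it was the only one of the 10 genes for which LT replicate 3 was not the highest of the LT libraries. The highest library was 3.06 times the lowest, against 44.0 times for Saa1, and the log2 fold change was 0.62 (95% interval -0.13 to 1.36, adjusted p = 0.982 by edgeR). The ratio of Saa4 to Saa1 in TPM therefore ranged from 0.0568 in LT replicate 3 to 1.52 in LT replicate 2.

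Orosomucoids, or alpha-1-acid glycoproteins, are encoded in the mouse by 3 neighbouring genes of which Orm1 is the major one. Orm1 was at 246, 232 and 744 CPM in LT and at 370, 597 and 705 CPM under the Fpn-LKO label, and Orm2 was at 11.1, 8.68 and 37.6 CPM and at 25.4, 28.9 and 45.8 CPM. For these genes LT replicates 1 and 2 lay below all other libraries, while LT replicate 3 lay within the range of the Fpn-LKO libraries or above it. The log2 fold change was 0.45 (95% interval -0.48 to 1.38) for Orm1 and 0.80 (95% interval -0.25 to 1.86) for Orm2, with adjusted p = 0.991 and 0.982 by edgeR.

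Orm3 was at 1.53, 2.56 and 3.00 CPM in LT and at 6.77, 5.83 and 8.71 CPM under the Fpn-LKO label. Every library labelled Fpn-LKO was above every LT library, LT replicate 3 included, and in counts the groups held 76 to 124 and 272 to 404 reads. Group means were 2.36 ± 0.755 and 7.10 ± 1.47 CPM (SD, n = 3 each). This is a 3.01-fold difference, or 1.59 on the log2 scale (standard error 0.30, 95% interval 1.01 to 2.17). By the quasi-likelihood test of edgeR the unadjusted p was 0.00082 and the adjusted p over all genes tested 0.509. Other tests of the same counts put it past the threshold of 0.05, with adjusted p = 0.00019 by DESeq2 and 0.0014 by edgeR's exactTest, while limma on log2(TPM + 1) gave 0.051, so whether Orm3 was called rested on the test.

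Orm3 parted from its neighbours most in LT replicate 3. Its log2 CPM minus its own mean over the 6 libraries was -0.41 there, against 0.78 for Orm1 and 0.75 for Orm2. In LT replicate 3, where the CPM of Orm1 was the highest of the 6 libraries, the ratio of Orm3 to Orm1 in TPM was at its lowest, 0.00316, against 0.00503 and 0.00763 in the other LT libraries. It was 0.0142, 0.00765 and 0.00936 under the Fpn-LKO label, all above LT though Fpn-LKO replicate 2 and LT replicate 2 were nearly level (exact permutation p = 0.1, the smallest possible). The ratio of Orm3 to Orm2 was 0.11, 0.203 and 0.0622 in LT and 0.205, 0.157 and 0.143 under the Fpn-LKO label. It too was lowest in LT replicate 3, but here the genotypes overlapped (exact permutation p = 0.3). The ratio of Orm2 to Orm1 was 0.0456, 0.0375 and 0.0509 in LT and 0.0692, 0.0487 and 0.0653 under the Fpn-LKO label, which overlapped (exact permutation p = 0.2). The transcripts of Orm3 were 86.4% identical to Orm1 and 88.3% identical to Orm2 over their whole length, and those of Orm1 and Orm2 91.0%, so counts of the scarce Orm3 could include reads of its abundant neighbour. How much was not tested.

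Hp was at 3140, 2460 and 4742 CPM in LT and at 3108, 4393 and 4773 CPM under the Fpn-LKO label. It was the steadiest of the 10 genes, the highest library holding 1.94 times the level of the lowest, and the log2 fold change was 0.25 (95% interval -0.33 to 0.83, adjusted p = 0.995 by edgeR). Hpx was at 2347, 1977 and 5980 CPM in LT and at 3360, 3837 and 5883 CPM under the Fpn-LKO label. Replicate 3 of either genotype was high and at nearly the same level, and the log2 fold change was 0.34 (95% interval -0.54 to 1.22, adjusted p = 0.995 by edgeR). The ratio of the heme scavenger Hpx to the hemoglobin scavenger Hp in TPM was 0.678, 0.728 and 1.14 in LT and 0.975, 0.791 and 1.12 under the Fpn-LKO label, and it did not separate the genotypes (exact permutation p = 0.6).

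Lcn2 was at 4.22, 2.54 and 68.3 CPM in LT and at 14.4, 27.8 and 42.5 CPM under the Fpn-LKO label. LT held the highest library and the 2 lowest, as for Saa1 and Saa2, and the span was 26.9 times in LT against 2.94 times under the Fpn-LKO label. Mean levels were 25.0 ± 37.5 and 28.2 ± 14.0 CPM (SD, n = 3 each), with a log2 fold change of 0.18 (95% interval -1.99 to 2.34, adjusted p = 0.995 by edgeR).

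The spread within a genotype was large beside that of other genes. The pooled within-genotype SD of log2 CPM was 2.55 for Saa1, 3.00 for Saa2, 1.88 for Lcn2 and 1.37 for Saa3, against a median of 0.29 over all genes tested. Among the 8998 genes with a mean of at least 5 CPM, the rank by this SD was 6 for Saa2, 9 for Saa1, 21 for Lcn2 and 68 for Saa3, while it was 992 for Hp. LT replicate 3 was the highest LT library for 9 of the 10 genes, as it was for 36.6% of all genes tested. It was the highest of all 6 libraries for 6 of the 10, and LT replicates 1 and 2 were the lowest of all 6 for 3 and 7 of them.

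**Figure D2:**
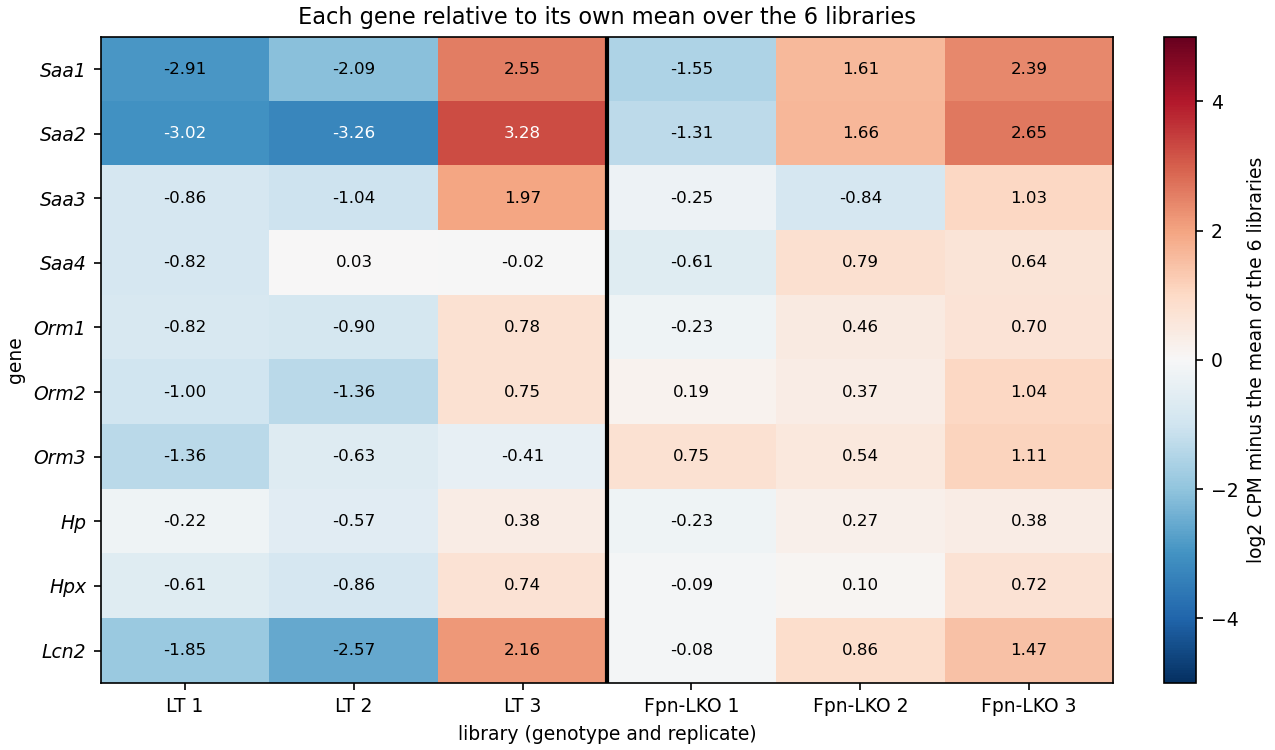
Log2 CPM of each gene minus its mean over the 6 libraries, with the libraries in columns, the genotypes divided by a line, and red for above and blue for below the mean. LT replicates 1 and 2 are blue for 9 of 10 genes, Saa4 being the exception, and LT replicate 3 resembles Fpn-LKO replicates 2 and 3 in the rows of Saa1, Saa2, Orm1, Orm2, Hp, Hpx and Lcn2 but not in that of Orm3.

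Over the 10 genes, 8 had a log2 fold change above 0 (49.4% of all genes tested did) and 2 below, with a median of 0.40 against -0.0040 over all genes tested. None passed an adjusted p of 0.05 by the quasi-likelihood test of edgeR, which 0.0232% of genes tested did. A single gene, Orm3, had an unadjusted p under 0.05, as did 4.8% of all genes tested, and it was also the only one whose groups did not overlap, where 5.25% of all genes tested were higher and 5.34% lower without overlap. A count of 1 in 10 is close to these background shares. The 10 genes were measured in the same libraries and include paralogs, so they are not independent of each other. DESeq2 and exactTest each called Orm3 alone of the 10, against 0.417% and 0.365% of all genes.

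LT replicate 3 decided most of these values. Without it, the log2 fold changes were 3.98 for Saa1, 4.86 for Saa2, 3.06 for Lcn2, 1.75 for Orm2, 1.22 for Orm1, 1.15 for Saa3 and 1.01 for Hpx, and they changed least for Orm3 (1.80), Saa4 (0.73) and Hp (0.55). Then 8 of the 10 genes were higher without overlap under the Fpn-LKO label, all but Saa4 and Hp, beside 11.1% of all genes tested. LT replicate 3 stood out by its high levels of these same genes, so the shares over all genes are not a like comparison here. The number with an unadjusted p under 0.05 was 7, beside 5.46% of all genes tested, and none passed the adjusted threshold, the lowest adjusted p being 0.546 by the quasi-likelihood test of edgeR. No other library had this weight. The number of genes higher without overlap was 1, Orm3, without LT replicate 1 (10.2% of all genes tested), LT replicate 2 (9.46%), Fpn-LKO replicate 2 (9.92%) or Fpn-LKO replicate 3 (10.4%), and 2, Orm3 and Saa4, without Fpn-LKO replicate 1 (9.68%). Those with an unadjusted p under 0.05 numbered 1 without LT replicate 1 (4.57%), LT replicate 2 (3.61%), Fpn-LKO replicate 2 (4.39%) or Fpn-LKO replicate 3 (4.69%), and again 2 without Fpn-LKO replicate 1 (4.63%). LT replicate 3 had the fewest genes with a read, 18723 against 19020 to 19405 in the others, while its total count of 43472951 lay within their range and its labels did not set it apart. Whether that bears on these genes was not tested.

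**Figure D3:**
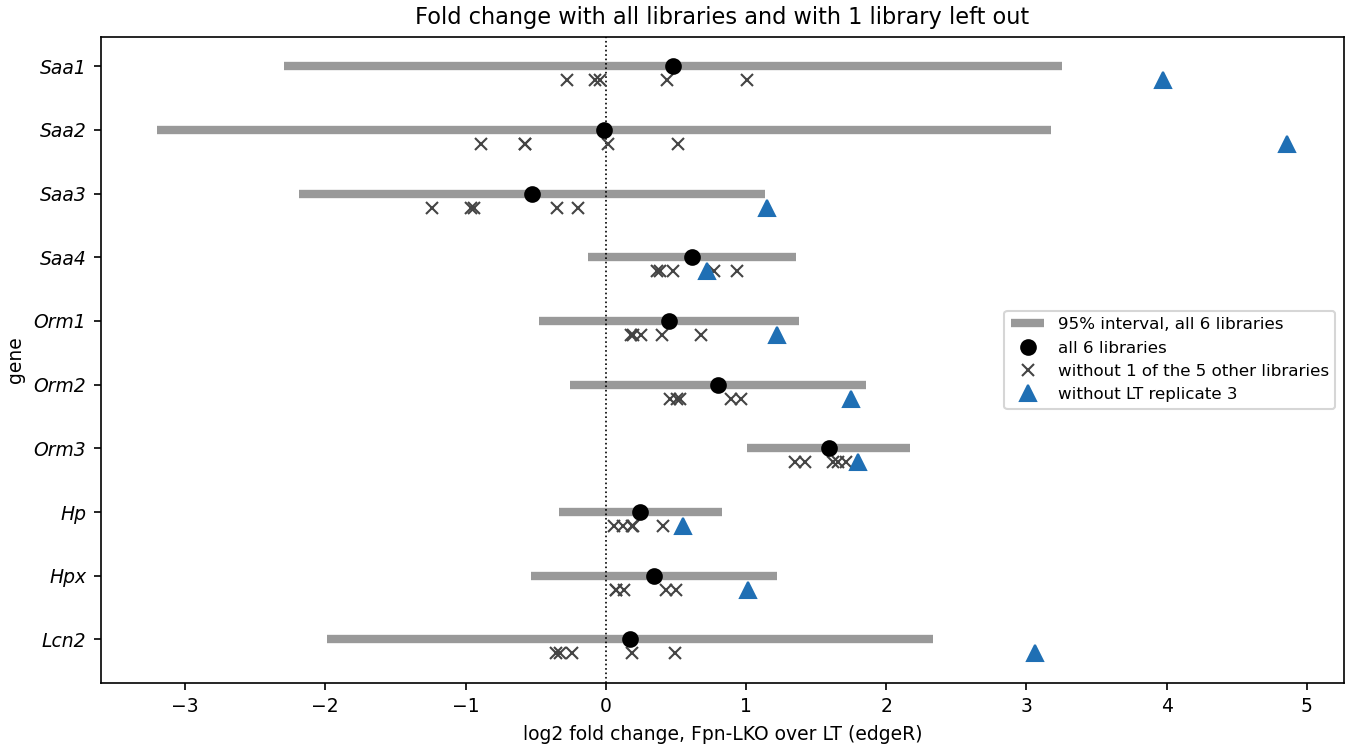
Log2 fold change of each gene between the genotypes by edgeR (x axis), with all 6 libraries (black circle, 95% interval in grey), without LT replicate 3 (blue triangle) and without each of the 5 other libraries (crosses). The triangle lies far to the right for Saa1, Saa2 and Lcn2, at 3.98, 4.86 and 3.06, and the interval of Orm3 alone lies wholly above 0.

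How the libraries were averaged mattered for the genes with wide spread. The fold changes above compare mean levels, to which the single high LT library adds most. The difference of the mean log2 CPM, which gives each library the same weight, was 1.64 for Saa1, 2.00 for Saa2 and 1.50 for Lcn2, while it was 1.60 for Orm3, close to its fold change of 1.59. In exact two-sided permutation tests on log2 CPM the p-values were 0.5 for Saa1, 0.4 for Saa2, 0.4 for Lcn2 and 0.1 for Orm3.

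The 10 genes together made up a varying part of the liver transcriptome. Their summed TPM was 6175, 4630 and 13738 in LT and 6658, 12415 and 14918 under the Fpn-LKO label, between 0.463% and 1.49% of all transcripts. The 6 libraries fell into 3 with low and 3 with high sums, and each genotype had mice on either side (exact permutation p = 0.4). Hp was 53.3% of the sum in LT replicate 1 and 29.6% in LT replicate 3, while Saa1 was 0.953% and 15.8%. The summed TPM of Orm1, Orm2 and Orm3 was 465, 391 and 1156 in LT and 637, 1213 and 1286 under the Fpn-LKO label (exact permutation p = 0.2).

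The genes most like Saa1 over the 6 libraries were found by the root mean square difference of log2 CPM, each gene centred on its own mean, among 8997 other genes with a mean of at least 5 CPM. They were Saa2 (0.58), Selenbp2 (0.79), Lcn2 (0.92), Derl3 (1.06) and Nucb2 (1.11). Selenbp2, which encodes a selenium-binding protein of the liver cytosol, was at 18.5, 24.8 and 360 CPM in LT and at 22.7, 76.7 and 259 CPM under the Fpn-LKO label. Thus it was high in replicate 3 of either genotype, like Saa1, but lower than Saa1 in Fpn-LKO replicate 2 relative to its mean.

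Nearest to Lcn2 were Mt1 (0.73), Nucb2 (0.75), Derl3 (0.76), Ntrk2 (0.83) and Selenbp2 (0.84). Mt1, a metallothionein that binds zinc and copper, was at 20.6, 16.0 and 93.4 CPM in LT and at 42.9, 96.1 and 236 CPM under the Fpn-LKO label, and Derl3, a protein of the endoplasmic reticulum that takes part in removing misfolded proteins, was at 1.17, 2.33 and 13.1 CPM and at 7.63, 19.6 and 19.9 CPM. Nearest to Orm2 were Orm1 (0.30), Hpx (0.33), Creld2 (0.38), Slc13a3 (0.40) and Gm3375 (0.41), so 2 of the 5 were among the 10 genes. These distances rest on 6 libraries of which LT replicate 3 is one, and they describe likeness of level only.

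Other acute-phase genes were read from a list of 18 that holds none of the 10. All 18 were tested and all had a log2 fold change above 0 (49.4% of all genes tested did), with a median of 0.34, or 0.46 without LT replicate 3. The 18 were measured in the same libraries and include chains of fibrinogen and metallothioneins. They are thus not independent of each other, and the shares over all genes are not a like comparison. None passed the adjusted threshold by the quasi-likelihood test of edgeR or by DESeq2, and 4 were higher with an unadjusted p under 0.05 (2.62% of all genes tested were), none lower (2.19%). LT replicate 3 was the highest LT library for 13 of the 18 (36.6% of all genes tested), and 3 were higher without overlap (5.25% of all genes tested).

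The 4 genes were Crp, Lbp, Steap4 and Mt2. Crp encodes C-reactive protein and was at 120, 89.6 and 96.0 CPM in LT and at 139, 163 and 145 CPM under the Fpn-LKO label, a difference of 0.55 on the log2 scale (standard error 0.14, adjusted p = 0.823 by edgeR). Lbp encodes the protein that carries bacterial lipopolysaccharide and was at 46.4, 46.4 and 50.5 CPM and at 79.8, 61.7 and 61.8 CPM, a difference of 0.50 on the log2 scale (standard error 0.13, adjusted p = 0.829 by edgeR). LT replicate 3 lay close to the other LT libraries for Crp and Lbp, unlike for Saa1, and for both genes the groups did not overlap.

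Steap4, which encodes a metalloreductase that acts on iron and copper, was at 129, 207 and 206 CPM in LT and at 220, 270 and 696 CPM under the Fpn-LKO label, also without overlap and with a single high library. Mt2, another metallothionein, was at 1.33, 1.75 and 5.90 CPM and at 4.65, 12.3 and 35.5 CPM, and its groups overlapped. The most abundant of the list were Fga and Fgb, which encode chains of fibrinogen, with log2 fold changes of 0.31 and 0.34 and adjusted p = 0.982 for each by edgeR.

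Of 12 genes whose products fall in the acute phase (negative acute-phase proteins), 7 were above and 5 below 0, the median was 0.02, and none had an unadjusted p under 0.05 by edgeR. Alb, albumin, had a log2 fold change of 0.01 and Trf, transferrin, one of -0.04. Trf was at 18243 CPM in LT replicate 3 and at 12677 to 14680 CPM in the other 5 libraries, so the library that was high for Saa1 was high for this gene too. Only 2 of the 12 genes, however, had LT replicate 3 as the highest LT library (36.6% of all genes tested did). Alb was at 38068 CPM in LT replicate 3, nearly level with LT replicate 2 (38397 CPM) and Fpn-LKO replicate 3 (38371 CPM).

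**Figure D4:**
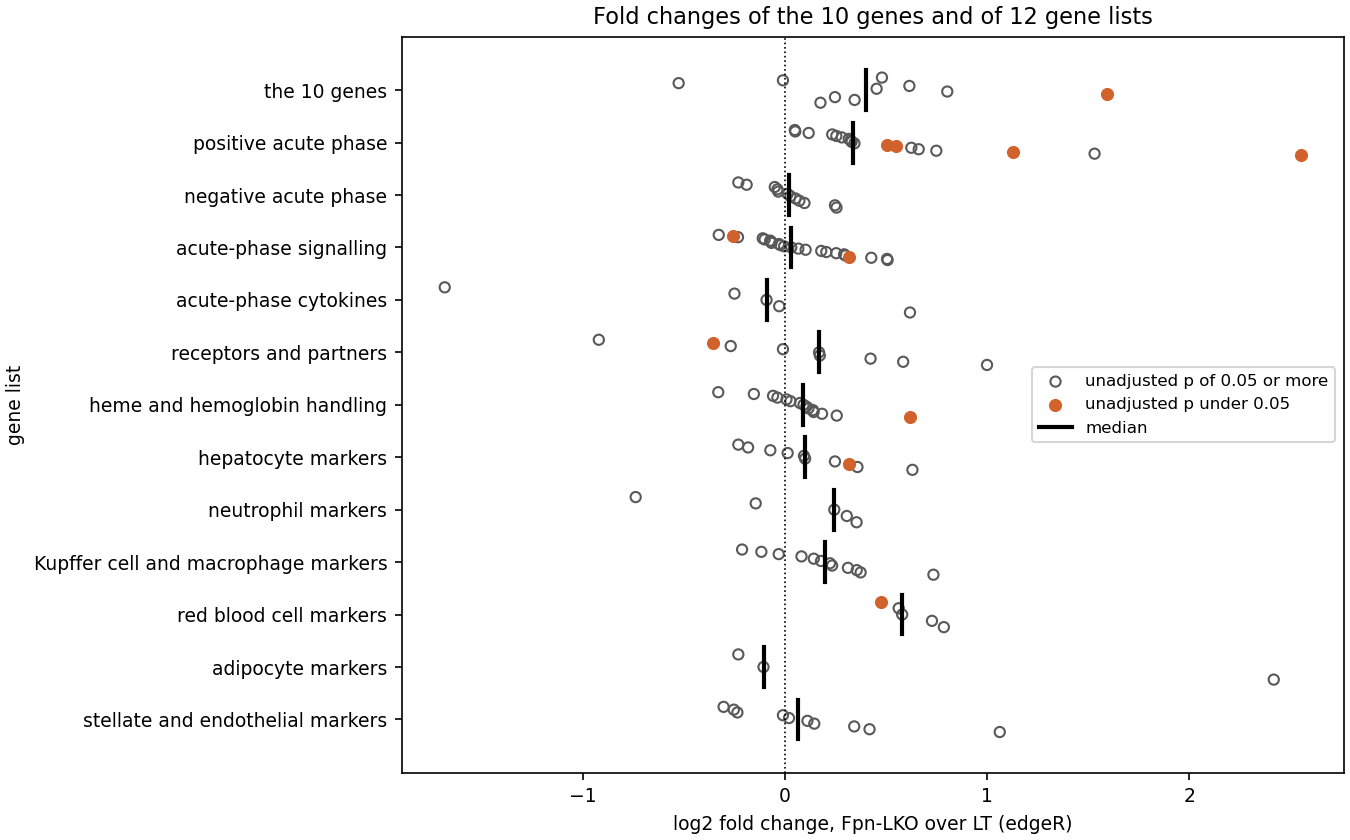
Log2 fold change between the genotypes by edgeR (x axis) for each of the 10 genes and each tested gene of 12 lists, with filled points for an unadjusted p under 0.05 and a bar at the median. All 18 genes of the positive acute-phase list, which are not independent of each other, lie above 0. The medians of the negative acute-phase list and of the signalling list are near 0, at 0.02 and 0.03.

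Among 25 genes of cytokine receptors, signalling and transcription factors that act on the acute-phase genes, 23 were tested, with 12 above and 11 below 0 and a median of 0.03. These counted 1 higher with an unadjusted p under 0.05 (2.62% of all genes tested were) and 1 lower (2.19%), close to those shares. The higher one was Hnf4a, a hepatocyte transcription factor, at 239, 250 and 265 CPM in LT and 310, 344 and 286 CPM under the Fpn-LKO label. The lower one was Il1rap, the co-receptor for interleukin-1, at 229, 248 and 234 CPM and at 201, 204 and 190 CPM. Their log2 fold changes were 0.32 and -0.26, with adjusted p = 0.982 for each by edgeR. For both genes the groups did not overlap, as for 10.6% of all genes tested. Lifr, the receptor of leukemia inhibitory factor, was highest in LT replicate 3 at 1028 CPM and lay between 310 and 579 CPM elsewhere.

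Transcripts of the cytokines themselves were scarce in this tissue. Of 10 cytokine genes, Il6, Osm, Lif, Il11 and Il22 were at 0 reads in all 6 libraries, which allows a level of up to 0.0725 CPM in a library (3 reads, counting error only), and the other 5 were tested without an unadjusted p under 0.05. The most abundant were Il1a at 2.98 to 8.17 CPM and Il18 at 7.54 to 11.4 CPM over the 6 libraries. Neither followed the order of Saa1, since Il1a was about as high in Fpn-LKO replicate 1 (8.05 CPM) as in LT replicate 3 (8.17 CPM).

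Of 11 receptors and partners of the 10 proteins, 9 were tested, and 1 was lower with an unadjusted p under 0.05 (2.19% of all genes tested were) and none higher (2.62%). This was Scarb1, the receptor for high-density lipoprotein, at 55.6, 64.6 and 55.8 CPM in LT and at 48.8, 50.4 and 38.2 CPM under the Fpn-LKO label, a log2 fold change of -0.36 (adjusted p = 0.982 by edgeR). Lrp1, which takes up the complex of heme and hemopexin, had a log2 fold change of 0.17 and Cd36, a scavenger receptor that also binds serum amyloid A, one of 1.00 (standard error 0.58, adjusted p = 0.982 by edgeR).

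Heme and hemoglobin handling was read from 15 genes, of which 11 were above and 4 below 0, with a median of 0.09. Ftl1, the light chain of the iron store ferritin, was the only one with an unadjusted p under 0.05 (4.8% of all genes tested had one). It was at 2029, 2055 and 1712 CPM in LT and at 2928, 2707 and 3266 CPM under the Fpn-LKO label, without overlap (10.6% of all genes tested). The difference was 0.62 on the log2 scale (standard error 0.18, adjusted p = 0.926 by edgeR and 0.01 by DESeq2, which called 0.417% of all genes). LT replicate 3 was the lowest library for Ftl1 and the highest for Saa1, while Fpn-LKO replicate 3 was the highest of its genotype for both. Whether the 2 genes go together was not tested.

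Markers of other cells were set beside the spread of the 10 genes. Of 12 neutrophil markers 5 were tested, Ly6g, Mpo, Ngp and Camp had 0 reads in all 6 libraries, and the summed level was 3.64 to 5.50 TPM in LT and 4.08 to 7.65 TPM under the Fpn-LKO label. LT replicate 3, where Lcn2, a gene that neutrophils also express, was highest, had the lowest sum. These sums rest on few reads. S100a8 had 34, 28 and 12 reads in LT replicates 1 to 3, while S100a9 had 42, 33 and 38 and was not lowest in replicate 3. The part of neutrophils in the level of Lcn2 was not tested. The 12 macrophage and Kupffer cell markers summed to 244 to 329 TPM in LT and 267 to 539 TPM under the Fpn-LKO label, again lowest in LT replicate 3 and highest in Fpn-LKO replicate 3.

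Red blood cell markers, of which 5 of 7 were tested, summed to 532 to 1842 TPM in LT and 883 to 2837 TPM under the Fpn-LKO label. Their sum was lowest in LT replicate 3 and highest in Fpn-LKO replicate 2, whereas Hp was high in both, and their part in the levels of Hp and Hpx was not tested. Among adipocyte markers, 3 of 7 were tested, Adipoq, Lep, Retn and Plin1 had 0 reads in all 6 libraries, and the sum was 832 to 1305 TPM in LT and 905 to 1378 TPM under the Fpn-LKO label. Nearly all of that sum was Car3, at 828 to 1302 TPM in LT and 901 to 1373 TPM under the Fpn-LKO label. The 10 stellate and endothelial markers summed to 207 to 290 TPM and 252 to 313 TPM, and the 10 hepatocyte markers to 42040 to 62797 TPM and 50188 to 57326 TPM. None of the 6 marker lists had a gene past the adjusted threshold by edgeR, and Hnf4a and Alas2, a heme synthesis enzyme of red cell precursors, were those with an unadjusted p under 0.05, both higher.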

How the data were processed

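Liver RNA of 3 LT and 3 Fpn-LKO mice was sequenced, with 1 library each. Processing notes of the submitters name bcl2fastq 2.20.0, FastQC 0.11.7, HISAT2 2.1.0, Bowtie2 2.3.4.1, StringTie 2.1.3b and the build mm10. The labels give a stranded mRNA kit and the methods a total RNA kit with removal of ribosomal RNA. The authors deposited read counts per gene from StringTie, unnormalized. The authors also deposited FPKM, which were not used, and TPM, which served to compare genes with each other.

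The deposited counts were fitted in edgeR 4.0.16 (R 4.3.3; quasi-likelihood test, TMM scaling, genotype only). Genes were kept if at most 1 library had 0 reads, and the Benjamini-Hochberg adjustment ran over these 17274 genes. The 95% intervals are 1.96 standard errors on either side. This is the multiple of a normal distribution, so with few libraries they are narrower than the quasi-likelihood test itself would set. The test was tried on simulated data. Alternatives were RLE size factors, DESeq2 1.42.0, exactTest, filterByExpr, no filter beyond 1 read, a block for the replicate number, limma 3.58.1 on log2 TPM with 1 or 0.1 added (mean of 1 TPM or more), and each library left out in turn. The study's methods name exactTest.

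The 10 genes, the lists, the motifs and the tests were chosen with earlier results of these data known. Besides the 10 genes and Slc40a1, a list gene was named if its adjusted p was under 0.05, then by unadjusted p up to 4, then by mean CPM up to 2, with the genes at 0 and those used to compare libraries named besides. For likeness the 5 nearest genes were named (prior count 2). Transcripts were compared with BLAST 2.17.0 in GENCODE. No label names the mouse, so p-values measure the spread between these libraries, and those of 1 genotype differed by more than sampling noise (chi-square per degree of freedom 54.5 to 265). With total counts of at least 43086184 per library, counting error matters only for genes of a few reads, and mice differed by more.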

Additional observations from a re-analysis of the deposited data

How the results depend on the processing

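With only 3 libraries a genotype, a single library could set the sign of a fold change. The 10 genes kept an adjusted p above 0.05 under each of the alternatives run, apart from Orm3, which was called by DESeq2 and by exactTest (1 gene each). The number of the 10 genes with an unadjusted p under 0.05 was 1 in the main test, 2 by limma on log2(TPM + 1) and on log2(TPM + 0.1) (4.95% and 4.82% of the genes tested there), and 1 to 7 with a library left out, 7 without LT replicate 3. Left-out libraries gave log2 fold changes of -0.28 to 3.98 for Saa1, -0.89 to 4.86 for Saa2, -1.24 to 1.15 for Saa3, -0.35 to 3.06 for Lcn2 and 1.35 to 1.80 for Orm3. Saa1 and Lcn2 turned negative without Fpn-LKO replicate 3, LT replicate 1 or LT replicate 2, at -0.28, -0.07 and -0.04 for Saa1 and -0.24, -0.33 and -0.35 for Lcn2. Saa2, at -0.01, turned positive without Fpn-LKO replicate 1 (0.51), Fpn-LKO replicate 2 (0.02) or LT replicate 3 (4.86) and by limma (2.05 and 2.09 with 1 and 0.1 added), and Saa3 turned positive without LT replicate 3 (1.15). The log2 difference of the ratio of Saa2 to Saa1 was 0.34 and ranged from -0.14 to 0.78, negative without LT replicate 2. Its cause was not tested. The summed TPM of Saa1 and Saa2, of the Orm genes and of all 10 genes and the ratios of Orm2 to Orm1 and of Hpx to Hp kept their sign with a library left out. The ratios of Orm3 to Orm1, of Orm3 to Orm2 and of Saa4 to Saa1 were chosen after values were seen and not recomputed that way. For the 10 genes, RLE size factors, filterByExpr and the inclusion of every gene with a read turned no sign.

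Of the list genes, 1 (Ftl1) was called by DESeq2 and 0 by the other tests. Those with an unadjusted p under 0.05 numbered 9 of 122 in the main test (4.8% of all genes tested) and 14 by DESeq2 (5.22%). With a library left out they numbered 8 to 16. The lowest count was without Fpn-LKO replicate 3 (4.69% of all genes tested) and the highest without Fpn-LKO replicate 2 (4.39%).

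No label pairs the mice, though same-numbered libraries of the genotypes have neighbouring numbers in their library names. Same-numbered libraries had correlations of deviations of 0.13, -0.01 and 0.05. These values cannot decide, with so few libraries a genotype, whether the replicate numbers pair the mice. With the number as a block, 0 of the 10 genes were called and 3 (Saa4, Orm2 and Orm3) had an unadjusted p under 0.05 (4.92% of all genes tested), Saa2 had a log2 fold change of 1.91, and 17 list genes had an unadjusted p under 0.05, 0 of them called.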

Other observations

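Outside the lists, genes close to Orm2 and Lcn2 in their levels over the 6 libraries included ones of the endoplasmic reticulum. Creld2, which encodes a resident protein of that compartment and was among the 5 nearest to Orm2, was at 25.6, 40.3 and 87.7 CPM in LT and at 85.0, 74.2 and 178 CPM under the Fpn-LKO label. Like Orm2, it was highest in Fpn-LKO replicate 3 and lowest in LT replicates 1 and 2. Slc13a3, a carrier of dicarboxylates, was at 10.4, 7.99 and 17.7 CPM in LT and at 23.9, 21.2 and 24.8 CPM under the Fpn-LKO label, and its groups did not overlap (10.6% of all genes tested). Ntrk2, a neurotrophin receptor near to Lcn2, was at 1.25, 0.647 and 6.07 CPM and at 6.12, 15.8 and 12.1 CPM, with LT replicate 3 and Fpn-LKO replicate 1 nearly level. These genes were taken by likeness alone, and no test was made of them as a group.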
